A study of Mus musculus with 6 samples.

Results

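The claudins and tight junction genes described here are 10 listed genes, *Cldn1*, *Cldn3*, *Cldn4*, *Cldn7*, *Cldn8*, *Cldn10*, *Cldn12*, *Cldn23*, *Ocln* and *Tjp1*, taken by name from the 47643 gene IDs of the count files. The source was a culture of mouse submandibular salivary glands as organoids (mSGOs), spheres grown in Matrigel from dissociated cells. Organoids of 3 mice were collected after 5 and after 7 days of culture, giving 3 libraries per day. All mice were C57BL/6 animals of 8 to 12 weeks, and the study used females only. All organoids were untreated, non-irradiated controls in WRY medium, which holds Wnt3a- and R-spondin1-conditioned medium, EGF, FGF2, N2, insulin, dexamethasone and the ROCK inhibitor Y27632. Both groups therefore carried the same agents, among them a ROCK inhibitor, which acts on the actomyosin that borders cell junctions. The groups differed in day alone, so time in culture and organoid growth cannot be told apart.

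Tight junctions seal the space between neighboring epithelial cells near their apical surface. Claudins are small membrane proteins that form the strands of the junction, and their mixture sets which ions pass between the cells. Occludin (*Ocln*) is a further strand protein, and ZO-1 (*Tjp1*) is the cytoplasmic scaffold that ties the strands to actin. In salivary glands these junctions separate saliva from the tissue along acini and ducts, and *Cldn4* is among the genes by which the study recognised luminal duct cells.

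Total counts in genes ranged from 1918198 to 2837397 per library, and 3 counts, the limit that a count of 0 allows, corresponded to 1.04 to 1.51 CPM (counts scaled to a library size of 1000000). Counts outside genes or not assigned to a single gene made up 13.7% to 14.4% of each day 5 library and 9.12% to 9.74% of each day 7 library. The part of that difference in the results was not tested. The labelled epithelial origin was borne out by *Epcam*, *Cdh1*, *Krt5*, *Krt14*, *Krt8* and *Krt18*, which summed to between 13518 and 17380 CPM at day 5 and between 10378 and 14973 CPM at day 7. The libraries came from polyadenylated RNA with a 3′ kit, which gives reads near the transcript end. CPM values were therefore compared between genes without division by length.

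The 250 bases before the start of the canonical transcript are shown for the 4 genes that passed the test and for *Cldn12*, whose day 5 and day 7 means were nearly equal. They were read 5′ to 3′ from the GRCm39 assembly. Capitals mark each match, on either strand, to GGGCGG (the box of KLF and SP factors), CACCTG (the E-box of Snail and ZEB repressors) or TGANTCA (the AP-1 motif).
Cldn1 promoter, chr16:26190597-26190846, minus strand: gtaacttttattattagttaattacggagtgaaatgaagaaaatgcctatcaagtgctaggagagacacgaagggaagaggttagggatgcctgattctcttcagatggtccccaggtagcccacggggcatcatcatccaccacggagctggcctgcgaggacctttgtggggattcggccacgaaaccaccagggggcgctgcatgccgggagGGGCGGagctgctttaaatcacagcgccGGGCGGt
Cldn8 promoter, chr16:88360072-88360321, minus strand: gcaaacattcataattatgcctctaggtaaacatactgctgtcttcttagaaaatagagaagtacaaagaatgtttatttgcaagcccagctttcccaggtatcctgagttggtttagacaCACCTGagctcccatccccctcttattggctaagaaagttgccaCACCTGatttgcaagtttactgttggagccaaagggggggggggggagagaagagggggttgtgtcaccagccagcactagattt
Cldn4 promoter, chr5:134975789-134976038, minus strand: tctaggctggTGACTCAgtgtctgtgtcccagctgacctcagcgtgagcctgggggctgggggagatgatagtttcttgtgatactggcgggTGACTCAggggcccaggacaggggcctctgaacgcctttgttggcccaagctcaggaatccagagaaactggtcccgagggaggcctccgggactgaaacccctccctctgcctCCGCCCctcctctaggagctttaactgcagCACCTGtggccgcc
Cldn3 promoter, chr5:135014818-135015067, plus strand: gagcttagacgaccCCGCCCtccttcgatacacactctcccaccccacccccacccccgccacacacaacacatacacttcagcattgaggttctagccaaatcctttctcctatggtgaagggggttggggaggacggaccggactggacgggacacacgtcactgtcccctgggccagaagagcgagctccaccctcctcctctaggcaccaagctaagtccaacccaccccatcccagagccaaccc
Cldn12 promoter, chr5:5564996-5565245, minus strand: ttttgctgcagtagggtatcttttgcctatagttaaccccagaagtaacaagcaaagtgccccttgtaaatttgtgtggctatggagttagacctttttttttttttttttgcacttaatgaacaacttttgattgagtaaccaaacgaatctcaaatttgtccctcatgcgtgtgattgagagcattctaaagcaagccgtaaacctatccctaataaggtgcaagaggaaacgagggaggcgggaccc
The *Cldn4* window held TGANTCA at 240 and at 158 bases before the start. Among the 21770 protein-coding promoters of the same length 6.17% held this motif and 0.262% held 2 or more, and of the other members only *Cldn10* held it. CACCTG was found in 4 of the 10 members (*Cldn4*, *Cldn7*, *Cldn8* and *Cldn23*) and in 17.7% of all promoters. It occurred 3 times in *Cldn7* and 2 times in *Cldn8*, and 2.07% of all promoters held 2 or more. GGGCGG was found in 6 of the 10 members, among them *Cldn1*, *Cldn3* and *Cldn4*, and in 36.3% of all promoters. It occurred 3 times in *Cldn23* and 2 times each in *Cldn1* and *Tjp1*, and 17.1% of all promoters held 2 or more. Neither AACCNGTT, the motif of Grainyhead-like factors, nor TATAAA was found in any member window, against 1.79% and 11.9% of all promoters. Matches of GGGCGG in the *Cldn1* window lay 35 and 7 bases before the start, and that in *Cldn3* lay 236 bases before it. A match of these letters is a description of the window, not a bound site.

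Of the 10 genes, whose positions are given on GRCm39, 9 had counts enough to be tested, and 4 rose from day 5 to day 7: *Cldn1*, *Cldn3*, *Cldn4* and *Cldn8*. None fell. Each of the 9 had counts in at least 2 of the day 5 libraries. All 4 are claudins known as barrier-forming. The threshold was an adjusted p under 0.05 in edgeR's quasi-likelihood test with a log2 fold change beyond 0.6. Among all 15792 genes tested, 12.0% passed it in either direction and 7.22% passed it upward, against 4 of 9 members. The 1140 higher and 761 lower genes became 950 higher and 1008 lower when libraries were scaled by their totals, with the same count of 4 higher members. The median log2 fold change was 1.27 over the 9 tested members and -0.01 over all genes tested. The member at that median was *Cldn23*, a gene of few counts, and with limma voom the median over the members was 0.69. All day 7 libraries lay above all day 5 libraries in 6 of the 9 members, against 15.4% of all genes tested. The members were chosen with earlier results of these data known, so these counts describe them and are not a test of enrichment. In bulk RNA, a change in the number of cells of one type and a change in RNA per cell cannot be told apart.

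**Figure D1:**
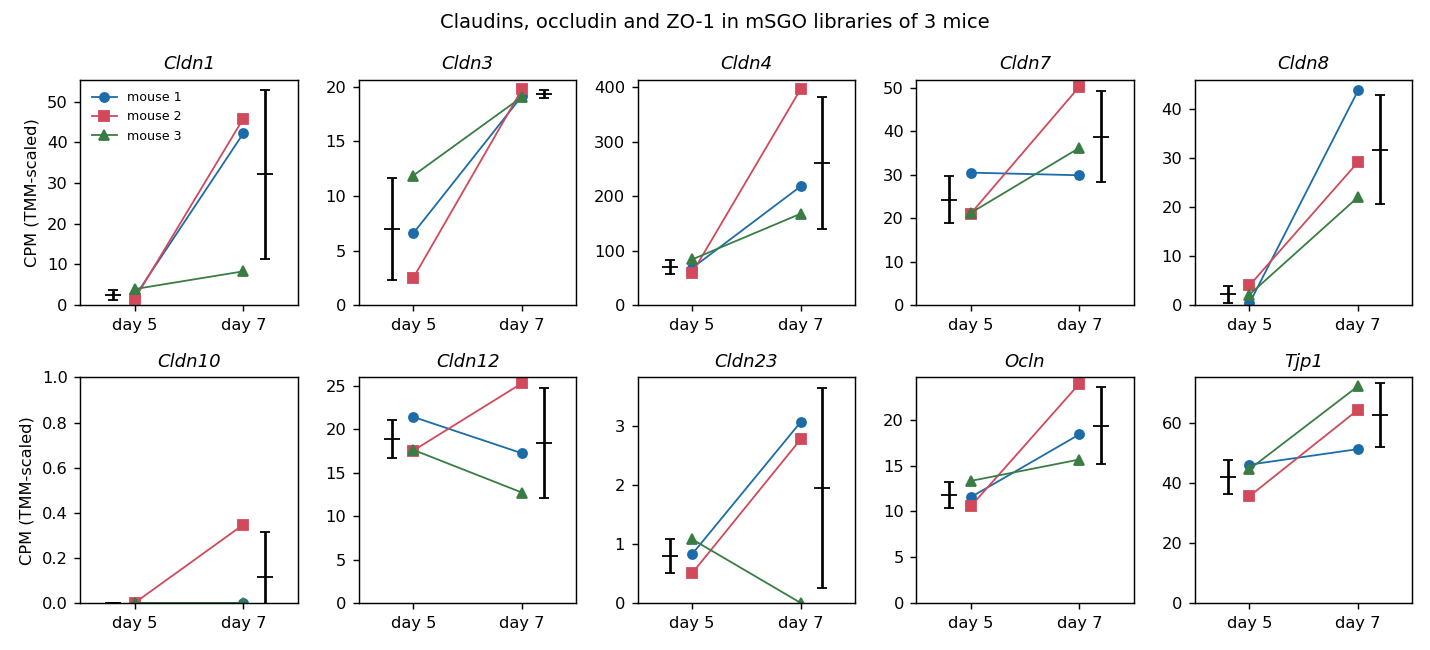
Level of each of the 10 genes in CPM (vertical axes, linear, from 0, each with its own range) at day 5 and day 7, with a line per mouse and black bars for the mean ± SD of 3 libraries. *Cldn8*, *Cldn4*, *Cldn3* and *Cldn1* are higher at day 7 in every mouse, whereas *Cldn12* goes both ways.

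*Cldn8* (ENSMUSG00000050520, chr16:88357716-88360071) forms a barrier to cations and is best known from kidney collecting ducts. Its level was 0.41, 4.02 and 2.16 CPM in the day 5 libraries of mouse 1, 2 and 3, and 43.7, 29.2 and 22.0 CPM in their day 7 libraries. The day 5 values rest on 1, 8 and 6 counts and the day 7 values on 114, 84 and 45 counts, with no overlap between the days. The log2 fold change was 3.88 ± 0.45 (SE, 95% interval 2.94 to 4.82, edgeR adjusted p = 1.50e-05). It passed in all 6 fits that left out a library, with values from 3.39 without the day 5 library of mouse 1 to 4.52 without that of mouse 2. Within mice, the ratio of day 7 to day 5 was 7.26 in mouse 2 and 10.2 in mouse 3, and mouse 1, with a single day 5 count, is described by its counts only.

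*Cldn1* (ENSMUSG00000022512, chr16:26175392-26190596), the claudin without which the epidermis leaks water, stood at 2.06, 1.51 and 3.96 CPM at day 5. At day 7 it stood at 42.2, 45.8 and 8.32 CPM. All day 7 values lay above all day 5 values, but mouse 3 reached only 8.32 CPM (17 counts), far below the other mice. The log2 fold change was 3.62 ± 0.53 (SE, 95% interval 2.50 to 4.74, edgeR adjusted p = 0.000213). Within mice, *Cldn1* was 20.5-fold, 30.4-fold and 2.10-fold higher at day 7, higher in each mouse but by widely different factors. The day 5 values of mouse 1, 2 and 3 rest on 5, 3 and 11 counts, so the factors of mouse 1 and mouse 2 are imprecise. Without the day 7 library of mouse 3 the log2 fold change was 4.04. Over the 6 fits that left out a library it ranged from 3.28 to 4.13 (edgeR adjusted p up to 0.00772). With all libraries the adjusted p was 0.0170 with robust estimation in edgeR and 0.0189 with limma voom.

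*Cldn4* (ENSMUSG00000047501, chr5:134973973-134975788), a barrier claudin of many glandular epithelia, was the most counted member at both days. It gave 68.05, 58.7 and 83.9 CPM at day 5 and 218, 397 and 168 CPM at day 7. Mouse 2 had the lowest day 5 and the highest day 7 value, and mouse 3 the highest day 5 and the lowest day 7 value. The within-mouse ratios were accordingly 3.21, 6.75 and 2.00. The log2 fold change over all libraries was 1.89 (95% interval 1.33 to 2.46, edgeR adjusted p = 0.000149), and it ranged from 1.46 to 2.12 when single libraries were left out.

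*Cldn3* (ENSMUSG00000070473, chr5:135015068-135016326) is closely related to *Cldn4*, and both proteins bind the enterotoxin of *Clostridium perfringens*. Its level was 6.60, 2.51 and 11.9 CPM at day 5 and 19.2, 19.8 and 19.1 CPM at day 7. The day 5 libraries were spread widely, while the day 7 libraries lay within 1 CPM of each other. The log2 fold change was 1.41 ± 0.37 (SE, 95% interval 0.63 to 2.19, edgeR adjusted p = 0.0176). This call was the least stable of the 4: it was lost without the day 5 library of mouse 1 (log2 fold change 1.35, edgeR adjusted p = 0.0994), without that of mouse 2 (1.05, adjusted p = 0.111) and without the day 7 library of mouse 2 (1.39, adjusted p = 0.0768). Without the day 5 library of mouse 3, which had the highest day 5 value, the log2 fold change was 2.04 (edgeR adjusted p = 0.0107). A test against the fold limit itself gave an edgeR adjusted p of 0.107, within a range of 9.6e-05 to 0.107 over 12 alternatives with all libraries. The order of the within-mouse ratios was that of *Cldn4*, with 7.88 in mouse 2, 2.91 in mouse 1 and 1.61 in mouse 3. The day 5 values of mouse 1, 2 and 3 rest on 16, 5 and 33 counts, so the ratio of mouse 2 is imprecise. The last 500 bases of the transcript share 109 bases with *Wbscr25* on the opposite strand, which had 11 counts in all libraries together.

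The other claudins of the list did not pass the threshold. *Cldn7* (ENSMUSG00000018569, chr11:69852648-69858711), which binds EpCAM and lies largely on the basolateral membrane, was at 30.5, 21.1 and 21.2 CPM at day 5 and at 29.9, 50.3 and 36.2 CPM at day 7. In mouse 1 the values of both days were nearly equal, and its day 5 library overlapped the day 7 values. The log2 fold change was 0.68 (95% interval 0.13 to 1.23, edgeR adjusted p = 0.100). It passed the threshold without the day 7 library of mouse 1 (0.84, edgeR adjusted p = 0.0306) or of mouse 3 (0.73, adjusted p = 0.0490), within a range of 0.0306 to 0.370 over the 6 fits that left out a library. The last 500 bases of *Cldn7* share 331 bases with *Elp5* on the opposite strand, which had 491 counts in all. Whether the counting used strand is not given in the sources used here, so reads of *Cldn7* and *Elp5* cannot be told apart in that stretch.

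*Cldn12* (ENSMUSG00000046798, chr5:5539537-5564995), an atypical claudin linked to calcium passage, was at 21.4, 17.6 and 17.6 CPM at day 5 and at 17.3, 25.3 and 12.7 CPM at day 7. It was lower at day 7 in mouse 1 and mouse 3 and higher in mouse 2. The log2 fold change was -0.02 with a 95% interval of -0.62 to 0.58 (edgeR adjusted p = 0.990), so that a change of 1 on the log2 scale in either direction lay outside the interval. *Cldn23* (ENSMUSG00000055976, chr8:36291866-36293713) had 2, 1 and 3 counts at day 5 and 8, 8 and 0 counts at day 7. These values were near the limit of 3 counts, and the log2 fold change of 1.27 had a 95% interval of -0.51 to 3.04 (edgeR adjusted p = 0.366). *Cldn10* (ENSMUSG00000022132, chr14:119025320-119112901), a pore-forming claudin of secretory epithelia, had a single count, in the day 7 library of mouse 2, and was not tested.

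Of the members other than claudins, neither *Ocln* nor *Tjp1* passed the threshold with all 6 libraries. *Ocln* (ENSMUSG00000021638, chr13:100630334-100689535) was at 11.5, 10.5 and 13.3 CPM at day 5 and at 18.4, 23.9 and 15.7 CPM at day 7. The days did not overlap, and the log2 fold change was 0.71 ± 0.28 (SE, 95% interval 0.12 to 1.30, edgeR adjusted p = 0.110). *Tjp1* (ENSMUSG00000030516, chr7:64945898-65177529) was at 46.2, 35.6 and 44.7 CPM at day 5 and at 51.4, 64.6 and 72.4 CPM at day 7. Again the days did not overlap, and the log2 fold change was 0.57 ± 0.22 (SE, 95% interval 0.11 to 1.02, edgeR adjusted p = 0.0989). *Ocln* passed it without the day 7 library of mouse 3 (0.83, edgeR adjusted p = 0.0277, range 0.0277 to 0.340 over the 6 fits), and *Tjp1* without that of mouse 1 (0.69, edgeR adjusted p = 0.0318, range 0.0318 to 0.351). The ratio of *Ocln* to *Tjp1* counts lay between 0.25 and 0.30 at day 5 and between 0.22 and 0.37 at day 7, with overlap.

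**Figure D2:**
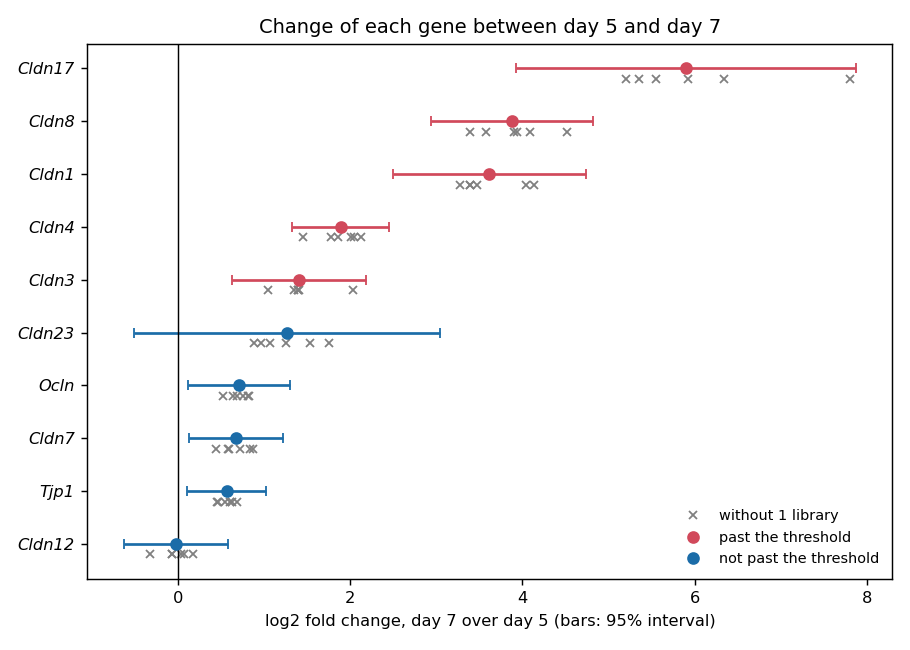
Log2 fold change of day 7 over day 5 (horizontal axis) for the 9 tested members and *Cldn17*, as points with bars for the 95% interval from edgeR. Crosses give the 6 values obtained when each library is left out in turn. Red genes passed the threshold, blue genes did not, and *Cldn12* is centered on 0.

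Summed over all claudin genes, the level was 129 ± 19.7 CPM (SD, n = 3) at day 5 and 423 ± 155 CPM (SD, n = 3) at day 7, with each day 7 library (407, 586 and 277 CPM) above each day 5 library (136, 107 and 144 CPM). *Cldn4* held at least 50.0% of the claudin counts in every library. Its share was 50.0%, 54.9% and 58.1% at day 5 and 53.6%, 67.7% and 60.7% at day 7. The 95% Wilson interval of the first of these shares ran from 44.6% to 55.4% and that of the last from 56.6% to 64.6%, covering counting error only. The shares of the days overlapped. *Cldn12* had 12.2% to 16.4% of the claudin counts at day 5 and 4.24% to 4.60% at day 7, and *Cldn7* had 14.7% to 22.4% and then 7.35% to 13.1%. The share of *Cldn8* lay between 0.30% and 3.76% at day 5 and between 4.98% and 10.7% at day 7, and that of *Cldn1* between 1.41% and 2.74% and then between 3.01% and 10.4%. At day 5 *Cldn4*, *Cldn7* and *Cldn12* had the largest shares in each library. At day 7 *Cldn1*, *Cldn8* and *Cldn7* followed *Cldn4* in mouse 1 and mouse 2, but in mouse 3 *Cldn1* (3.01%) lay below *Cldn3* (6.90%) and *Cldn12* (4.60%). Shares add up to a whole, so the lower share of *Cldn12* stands beside a level in CPM that did not pass the test. The lower share of *Cldn7* stands beside a mean level that was higher at day 7 (38.8 CPM) than at day 5 (24.3 CPM), also without passing. The shares were described and not tested.

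**Figure D3:**
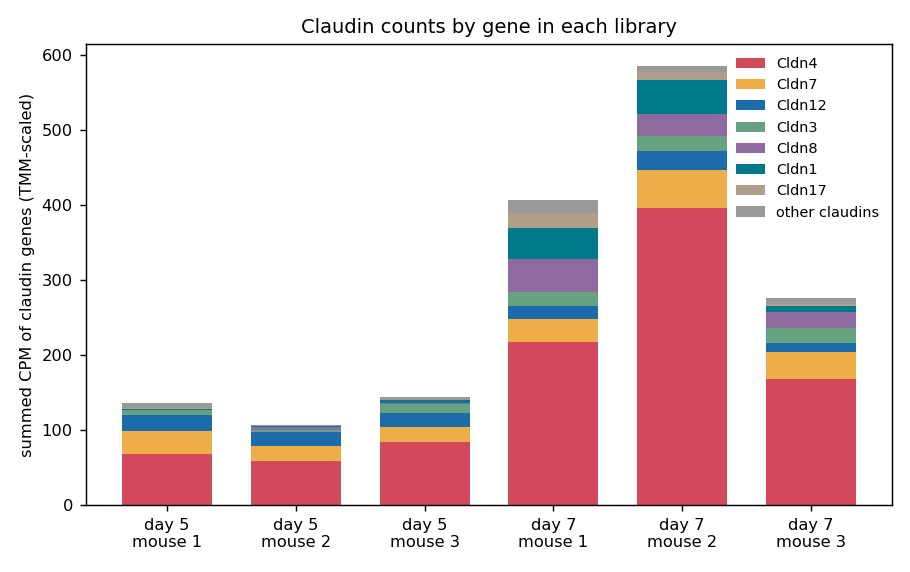
Summed CPM of all claudin genes in each library (bar height, linear axis from 0), divided by gene in proportion to their counts. Day 7 bars reach 277 to 586 CPM and day 5 bars 107 to 144 CPM, with *Cldn4* the largest segment in all 6 libraries.

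In the order of mean levels at day 5, *Cldn4* was followed by *Tjp1* and then by *Cldn7*, *Cldn12*, *Ocln*, *Cldn3*, *Cldn1*, *Cldn8*, *Cldn23* and *Cldn10*. The ranges of the libraries overlapped between *Cldn7* and *Cldn12*, and between each pair of neighbors from *Ocln* down to *Cldn23*. At day 7 the order was *Cldn4*, *Tjp1*, *Cldn7*, *Cldn1*, *Cldn8*, *Cldn3*, *Ocln*, *Cldn12*, *Cldn23* and *Cldn10*. Here *Cldn7*, *Cldn1* and *Cldn8* overlapped in turn, as did *Cldn3*, *Ocln* and *Cldn12*, and *Cldn23* and *Cldn10*. *Cldn4* and *Tjp1* stood clear of their neighbors at both days.

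Among the other claudins of the mouse, 25 had an ID in the files, 18 of these had no count in any library, and 5 were tested. Only *Cldn17*, a claudin that forms anion channels, passed the threshold. It had 1, 0 and 0 counts at day 5 and 52, 31 and 5 counts at day 7, again with the lowest day 7 value in mouse 3. The ratio of its summed levels was 84.0, with a 95% counting interval of 14.7 to 3357 because a single day 5 count stands below it (edgeR adjusted p = 0.000414). It passed in all 6 fits without a library, with fitted log2 fold changes, which depend on the prior count, from 5.20 without the day 7 library of mouse 1 to 7.80 without the day 5 library of mouse 1. *Cldn17* met the filter of counts in 2 libraries only through day 7, so these passes are not independent support. *Cldn17* lies 53850 bases from *Cldn8* on mouse chromosome 16 and was the only tested gene within 250000 bases of it. *Cldn3* and *Cldn4* lie 39280 bases apart on chromosome 5, and each has 15 tested genes within 250000 bases. In both sets the other claudin, itself a listed member, was the one gene past the threshold, against 12.0% of all genes tested. Whether neighboring genes change together was not tested. *Cldn1* had 1 tested gene in such a window, *Il1rap*, a subunit of the interleukin-1 receptor, named here after its values were seen (log2 fold change 0.95, edgeR adjusted p = 0.0416, lost in 5 of 12 alternatives and in 4 of 6 fits without a library, with adjusted p up to 0.333).

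The wider junction was described by 8 lists of 115 genes, of which 89 were tested. Of these, 10 passed the threshold, 9 upward and 1 downward (11.2%, against 12.0% of all genes tested), and the median log2 fold change over the 89 was 0.14. Outside the claudins, 1 of 8 tested membrane proteins rose, which was *F11r*, the adhesion molecule JAM-A. It went from 312, 358 and 360 CPM to 555, 812 and 671 CPM (log2 fold change 0.98 ± 0.19, SE, edgeR adjusted p = 0.00252). Of 18 plaque genes, *Amot*, an angiomotin that binds actin and YAP, rose by 1.74 on the log2 scale (edgeR adjusted p = 0.00903), and *Arhgef2*, the RhoA exchange factor GEF-H1, fell by 0.71 (edgeR adjusted p = 0.0354). *Amot* had 2.89, 5.52 and 1.80 CPM at day 5 and 9.20, 12.5 and 11.3 CPM at day 7, and *Arhgef2* had 50.7, 47.2 and 57.3 CPM and then 32.2, 32.6 and 29.9 CPM. In both genes the days did not overlap. The call of *Arhgef2* was lost without any single day 5 library or without the day 7 library of mouse 2 (log2 fold change -0.77 to -0.63, edgeR adjusted p up to 0.198 in the 6 fits), and that of *Amot* without the day 5 library of mouse 1 or 3 or the day 7 library of mouse 2 (1.40 at the lowest, adjusted p up to 0.0935). The most counted plaque gene, *Ybx3*, had 549 ± 68.8 and 603 ± 102 CPM (SD, n = 3 each) and did not pass.

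Of 15 apical polarity genes, *Pard6b* and *Pard3*, which code for partners in the Par complex, rose. *Pard6b* went from 10.3, 4.52 and 11.2 CPM to 32.6, 45.5 and 18.1 CPM, which is 1.87 ± 0.36 (SE) on the log2 scale (edgeR adjusted p = 0.00201). *Pard3* went from 352 ± 15.8 to 537 ± 3.99 CPM (SD, n = 3 each), and its log2 fold change of 0.61 (edgeR adjusted p = 0.0303) sat just inside the fold limit. Its call was lost when scaled by library totals (0.51) or upper quartiles (0.57), and without any single day 5 library or the day 7 library of mouse 2 (edgeR adjusted p up to 0.161 in the 6 fits). Of 12 adherens junction genes, *Nectin2* rose by 1.29 (edgeR adjusted p = 0.0016) and *Nectin4* by 1.28 (edgeR adjusted p = 0.0177) on the log2 scale. Both code for adhesion proteins that pair across the cell border. *Nectin2* had 27.6, 28.1 and 36.0 CPM at day 5 and 53.3, 92.0 and 79.3 CPM at day 7. *Nectin4* was lowest in mouse 3 at day 7, with 77.1, 64.9 and 22.5 CPM against 26.4, 25.1 and 16.9 CPM, and lost its call in limma voom (1.16), with robust estimation (1.28), and without the same 4 libraries as *Pard3* (adjusted p up to 0.130 in the 6 edgeR fits). E-cadherin (*Cdh1*), the most counted of this list, was at 999.6 ± 54.95 and 1301 ± 146 CPM (SD, n = 3 each) with an edgeR adjusted p of 0.198.

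None of the 6 genes of the EpCAM and matriptase pathway passed, and *Epcam* itself had 484 ± 58.1 CPM at day 5 and 505 ± 62.6 CPM at day 7 (SD, n = 3 each). None of 12 genes of junction tension and kinases passed either. The most counted gene of that list, the myosin light chain *Myl12a*, had 590 ± 37.2 and 605 ± 395 CPM (SD, n = 3 each). Of 13 tested regulators of claudin genes, *Elf3* and *Ovol1*, transcription factors of differentiating epithelia, rose. *Elf3* went from 19.8, 14.1 and 21.6 CPM to 75.2, 90.2 and 37.2 CPM (log2 fold change 1.86, edgeR adjusted p = 0.000409). Within mice its ratio was highest in mouse 2 and lowest in mouse 3. Of the members, *Cldn1*, *Cldn3*, *Cldn4*, *Cldn12* and *Ocln* had that order, as had *Pard6b*, whereas *Cldn7*, *Cldn8* and *Tjp1* did not. The share of all genes with that order was not counted, and a link to *Elf3* was not tested. *Ovol1* rose by 1.47 on the log2 scale (edgeR adjusted p = 0.0113), with 4.95, 9.04 and 5.40 CPM at day 5 and 25.7, 14.6 and 12.2 CPM at day 7, and lost its call without the day 5 library of mouse 1 (1.30, edgeR adjusted p = 0.0925) or mouse 3 (1.34, adjusted p = 0.091). *Klf4*, the most counted regulator, had 462 ± 36.2 and 437 ± 175 CPM (SD, n = 3 each). A test against the fold limit lost the calls of *F11r*, *Amot*, *Arhgef2*, *Pard3*, *Nectin4* and *Ovol1*.

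**Figure D4:**
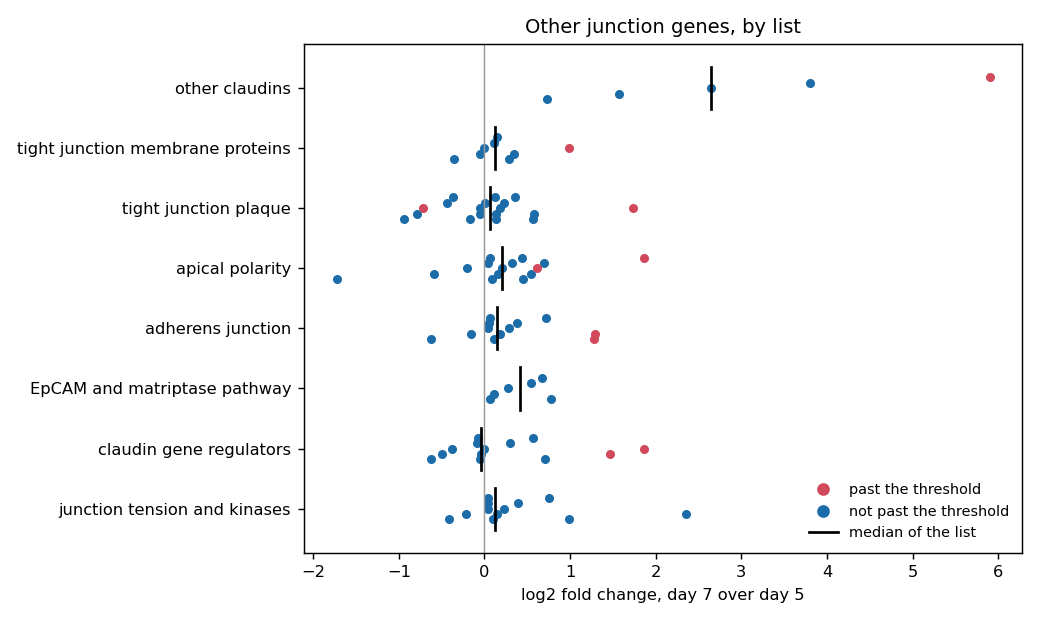
Log2 fold change of day 7 over day 5 (horizontal axis) of the 89 tested genes of the 8 junction lists, a point per gene, with a black line at the median of each list. Red points passed the threshold. The medians of the lists below the other claudins lie between -0.04 and 0.41.

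The claudin changes can be set beside the markers of the cells that a gland organoid could hold. Of the luminal duct markers other than *Cldn4*, *Clic1* rose (log2 fold change 0.94, edgeR adjusted p = 0.00753) and *Krt8* fell by 0.65 (edgeR adjusted p = 0.0374). The call of *Clic1* was lost without the day 5 library of mouse 2 (0.94, edgeR adjusted p = 0.0659) or mouse 3 (0.89, adjusted p = 0.0712), and that of *Krt8* without any single day 5 library or the day 7 library of mouse 2 (edgeR adjusted p up to 0.178 in the 6 fits). With all libraries *Krt7* (0.52), *Krt17* (-0.30) and *Krt18* (0.16) did not pass, and *Krt7* passed without the day 7 library of mouse 1 (0.72, edgeR adjusted p = 0.0144). The luminal list summed to between 2060 and 2133 CPM at day 5 and between 1833 and 3182 CPM at day 7. Thus 2 of 5 luminal markers passed, in opposite directions, against 12.0% of all genes tested. At day 7 *Krt7*, *Krt17*, *Krt18* and *Clic1* were highest in mouse 3, and *Krt8* was highest in mouse 1. Among the tested members, *Cldn1*, *Cldn3*, *Cldn4*, *Cldn8*, *Cldn12*, *Cldn23* and *Ocln* were lowest in mouse 3 at that day, *Cldn3* by less than 1 CPM. *Cldn7* and *Tjp1* were lowest in mouse 1. Whether these orders are linked was not tested. No basal duct marker of 3 passed, with sums of 11713 to 15698 and 8092 to 13139 CPM. Both of the 2 cycling markers fell, with sums of 967 to 1125 and 367 to 573 CPM, against 761 of all 15792 genes tested that fell.

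Of the other types, 1 of 4 tested myoepithelial and 1 of 5 tested acinar markers rose, against 7.22% upward among all genes tested. With mouse as a block the acinar count was 3, and 2339 instead of 1901 of all genes passed. The remaining tested acinar markers, also named after their values were seen, did not pass without the block. They were *Aqp5* (log2 fold change 0.93, edgeR adjusted p = 0.123), *Slc12a2* (0.92, adjusted p = 0.0585), *Chrm3* (0.88, adjusted p = 0.106) and *Bhlha15* (-0.03). All day 7 libraries lay above all day 5 libraries in 2 of the 5 tested acinar markers, *Aqp5* and *Chrm3*, against 15.4% of all genes tested. The risen genes, named like *Cd68* and *Flt1* after their values were seen, were *Acta2* and *Pip*. The tested myoepithelial markers had no count at day 5, so they entered the test through day 7 alone. *Acta2* had 14, 24 and 2 counts at day 7, and its passes in all 6 fits without a library are therefore not independent support. *Pip* passed in 2 of the 6 fits. *Pip* had 0, 2 and 1 counts at day 5 and 1, 24 and 21 at day 7, so its days overlapped, and it lost its call without any single day 5 library or the day 7 library of mouse 2 (edgeR adjusted p up to 0.0965), in limma voom (adjusted p = 0.153) and with robust estimation in edgeR (adjusted p = 0.068). Myoepithelial sums were 0 to 0.36 and then 4.41 to 10.1 CPM, and acinar sums 49.7 to 80.4 and then 69.8 to 210 CPM. Of 10 macrophage markers 8 had no count, *Adgre1* and *Csf1r* among them, the list summed to at most 6.85 CPM, and the 1 tested gene, *Cd68*, rose but passed in only 3 of the 6 fits. It lost its call without the day 5 library of mouse 2 or 3 or the day 7 library of mouse 2 (edgeR adjusted p up to 0.114), and in the test against the fold limit (edgeR adjusted p = 0.0575). Of 8 endothelial markers *Cdh5* and *Tek* had no count, 1 of 5 tested genes (*Flt1*) rose, passing in all 6 fits, and the sum reached at most 17.3 CPM. The endothelial claudin *Cldn5* had 1 count, at day 5. No fibroblast marker of 3 tested passed, with sums of at most 1.96 CPM. The part of the myoepithelial, acinar and cycling markers in the claudin changes was not tested.

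For each of the 4 risen claudins, the genes most like it over the 6 libraries were found by the Euclidean distance of centered log2 CPM among 7999 protein-coding candidates with a mean of at least 10 CPM. These neighbors in pattern are a description, since 2 days set most of the pattern. *Cldn1* lay closest to *Arc*, a gene known from synapses, at a distance of 0.415 (median of all candidates 4.30). *Arc* was at 3.71, 2.51 and 4.32 CPM and then at 56.0, 60.7 and 12.2 CPM, with the same low day 7 value in mouse 3. Next came *Pdzk1ip1* at 1.01. *Cldn4* lay closest to *Fn1*, which codes for fibronectin, at 0.417, and to *Btg2*, an antiproliferative gene, at 0.434 (median 2.49). *Fn1* rose from 65.6, 44.7 and 67.7 CPM to 146, 312 and 153 CPM. *Cldn3* lay closest to *Rab33b* (0.633) and *Ehbp1* (0.699, median 2.46), and *Cldn8* to *Selenbp1* (0.995) and *Gjb6*, a connexin of gap junctions (1.01, median 4.72).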

How the data were processed

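Total RNA of 6 organoid collections (day 5 and day 7 of the same 3 mice, as the labels state) was made into 3′ libraries by the authors. The deposited files hold raw counts per Ensembl gene ID on GRCm39. The aligner, counter, annotation release and strand setting are not given in the sources used here. Entries that name no gene were left out. Symbols came from GENCODE (91.2% of IDs matched).

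Genes counted in 2 or more libraries were tested with edgeR 4.0.16 (R 4.3.3), by TMM scaling and the quasi-likelihood test of day, with Benjamini-Hochberg adjustment over all 15792 genes, following the study's filter and limits. CPM used the TMM-scaled library size. At 1918198 to 2837397 counts in genes per library, precision is limited for genes of few counts, and intervals cover counting error only where so stated.

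The members and lists were chosen with earlier results of these data known. Besides the 10 members, the genes named were those past the threshold in each junction list (at most 6), the most counted of each list, the luminal markers, and the 2 genes of nearest pattern for each risen member. Same-numbered libraries share a mouse, and their deviations from the day means correlated at 0.14, -0.10 and 0.16 over 8171 genes; a fit with mouse as a block was an alternative. Other alternatives were scaling, low-count filters, DESeq2 1.42.0, limma voom 3.58.1, robust estimation, a test against the fold limit and leaving out each library. The test was checked on simulated data. Shared bases were sought between the last 500 bases of each transcript and other genes with blastn, in matches of at least 50 bases. Motifs were sought in 250 bases before each canonical start of 21770 protein-coding genes.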

Additional observations from a re-analysis of the deposited data

How the results depend on the processing

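With all libraries, 4 members passed the threshold under 11 alternatives and 3 under the test against the fold limit, where *Cldn3* lost its call. The same test left 623 of all genes and 4 of the junction list genes, against 1901 and 10. Leaving out each replicate in turn gave 3 to 6 members, 5 to 17 junction list genes and 794 to 2575 of all genes. The lower member counts came without the day 5 library of mouse 1 or 2 or the day 7 library of mouse 2, and the higher without the day 7 library of mouse 1 or 3; the cause was not tested. With the replicate block (paired by mouse), 4 members, 10 junction list genes and 2339 of all genes passed, and no call of a member or a named junction gene changed. Scaling by library totals only moved the median of all genes to -0.10 and the split of calls from 1140 higher and 761 lower to 950 higher and 1008 lower, with 4 members still higher. *Cldn1*, *Cldn4* and *Cldn8* passed under all 12 alternatives with all libraries and in all 6 fits without a library. No direction of a called gene reversed.

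*Cldn10* had a single count and was not tested. *Cldn23* had few counts, and its 95% interval of -0.51 to 3.04 on the log2 scale is too wide to tell no change from a large rise at this depth. The median log2 fold change over the tested members was 0.69 with limma voom against 1.27. The libraries of a day differ by mouse. The edgeR p-values rest on a spread moderated over all genes, not only on that of the gene among 3 mice.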
